A study of Danio rerio with 4 samples.

Results

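Glycolysis breaks glucose down to pyruvate, and its enzymes, together with those that pass pyruvate on to lactate or into the mitochondrion, are encoded in zebrafish by several isoform genes per step. Members were taken from the brain count table by gene symbol, with a pattern that covers hexokinase to pyruvate kinase, lactate dehydrogenase, pyruvate dehydrogenase and its kinases, the mitochondrial pyruvate carrier and monocarboxylate transporters. The pattern found 61 of the 31030 genes in the table, and 59 of them averaged 10 counts or more per library and were kept for the comparisons. Brains came from zebrafish of 4 mpf (months post fertilization), and each combination of sex (male or female) and genotype (wild type or atrn-/-) was sequenced as 1 library. The atrn-/- fish carry a small CRISPR/Cas9 deletion in atrn, the gene of the glycoprotein attractin, that is predicted to truncate the protein, and the sequenced mutants are of a single line. The methods describe RNA of a single brain while the study's text has several brains per group, and with 1 library a group there is no measure of the spread between fish.

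Total counts lay between 8654693, in the wild-type female, and 16254750, in the mutant male. For atrn itself, the wild-type male held 808 counts and the mutant male 462, and the wild-type female held 662 and the mutant female 423. These counts are not scaled for library size, so the drops in the sexes cannot be compared from them. Neuron markers made up 1.03% to 1.11% of the counts of each library, and all 10 listed were kept, whereas 1 of 4 liver markers was. The wild-type female stood apart in skeletal muscle markers. The 20 listed markers summed there to 5177 CPM (counts scaled to a common library size), against 606 in the wild-type male, 401 in the mutant male and 866 in the mutant female. Without ryr1b, a muscle calcium channel gene left out after its values were seen (233 to 363 CPM in each library), the sums were 4863 CPM in the wild-type female, 244 in the wild-type male, 125 in the mutant male and 632 in the mutant female. The wild-type female enters every female ratio, none of which can be had without it. Fold changes of members over both sexes are given with and without it.

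The steps from glucose to pyruvate run in the cytosol of every cell. Tissues differ in which isoform they use at a step. In mammals, aldolase A, muscle phosphofructokinase, phosphoglycerate mutase 2, beta enolase, lactate dehydrogenase A and hexokinase 2 are known from skeletal muscle, and aldolase C, phosphoglycerate mutase 1, gamma enolase, lactate dehydrogenase B and hexokinase 1 from brain. In the brain, astroglia are known for glycolysis and lactate release, and neurons for the use of lactate and the oxidation of pyruvate in mitochondria. Mostly following these names, 10 members were listed as muscle type (gapdh, aldoaa, aldoab, pfkma, pfkmb, pgam2, eno3, ldha, hk2 and slc16a3). The 13 listed as brain type were gapdhs, aldoca, aldocb, pfkpa, pfkpb, pgam1a, pgam1b, eno1a, eno1b, eno2, ldhba, ldhbb and hk1. The names above do not cover the platelet-type genes pfkpa and pfkpb, the alpha enolases eno1a and eno1b, or slc16a3. pfklb and pklr were listed as liver type. gapdh and gapdhs were placed from their counts in these libraries, since the mammalian GAPDHS is a sperm enzyme, so their pattern is a description and no independent support for the lists. Some isoforms are near copies of each other, and how reads shared between them were counted is not given in the sources used here.

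The members held 1.11% of the counts in the wild-type male, 1.32% in the mutant male, 1.19% in the wild-type female and 1.18% in the mutant female. Most of this share lay on a few genes. gapdhs, the glyceraldehyde-3-phosphate dehydrogenase isoform of these brains, had 25953 counts in the wild-type male, 38080 in the mutant male, 16001 in the wild-type female and 25200 in the mutant female. The aldolase C gene aldocb had 26313, 28991, 15037 and 20163 counts in the same order. These counts are not corrected for transcript length and do not rank the genes by level. At the other end, slc16a7, the gene of a monocarboxylate transporter, had 0 counts in all 4 libraries, which allows up to 0.342 CPM in the wild-type female and up to 0.229 CPM in the others. pfkfb1 had 6, 11, 9 and 6 counts and was not kept.

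**Figure D1:**
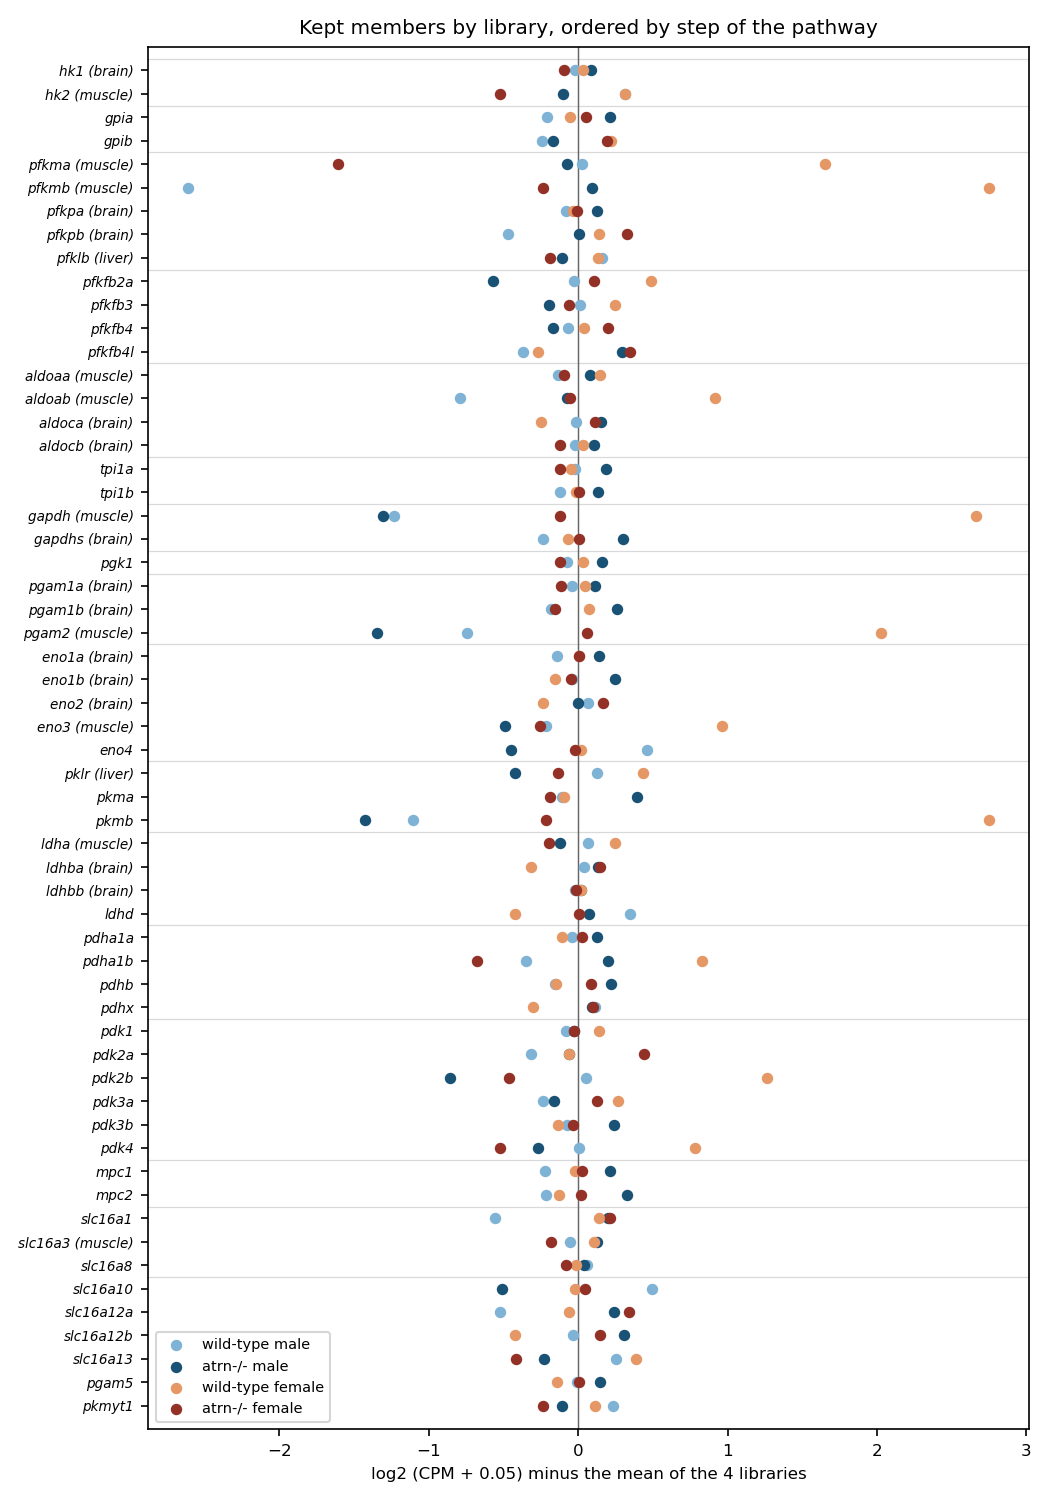
Each row is 1 kept member and each point 1 library, as log2 of CPM plus 0.05 minus the mean of the 4 libraries, with the isoform type in brackets and lines between steps. The wild-type female lies to the right of the other libraries for gapdh, pkmb, pgam2, eno3, aldoab, pfkma, pfkmb, pdk2b and pdk4, and most rows lie within a narrow band around 0.

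Several of the muscle type isoforms were high in the wild-type female. gapdh encodes glyceraldehyde-3-phosphate dehydrogenase, and the study names gapdh as the reference gene of its qRT-PCR. Whether the primers of the study amplify gapdh, gapdhs or both was not checked here. In these libraries gapdh had 119 counts in the wild-type male, 114 in the mutant male, 980 in the wild-type female and 212 in the mutant female. Its level was 7.45 CPM, 7.08 CPM, 112 CPM and 16.2 CPM in the same order. The wild-type female was thus far above the others, the mutant female was above both males, and the males were alike within counting error. Its mutant/wild-type log2 ratio was -0.07 for males (95% interval -0.46 to 0.31) and -2.78 for females (95% interval -3.01 to -2.57). These intervals cover counting error only, and with 1 library a group no p is given within a sex.
Pyruvate kinase makes pyruvate in the last step, and the gene pkmb, which has no fixed type here, followed the same profile. pkmb had 20 counts in the wild-type male, 16 in the mutant male, 165 in the wild-type female and 31 in the mutant female. pgam2, the muscle phosphoglycerate mutase, had 29, 19, 111 and 42 counts in this order. Both genes were highest in the wild-type female and next highest in the mutant female, and their female log2 ratios were -2.91 (95% interval -3.59 to -2.43) and -1.93 (95% interval -2.53 to -1.46).
The muscle enolase eno3 had 528, 439, 655 and 420 counts, or 33.1 CPM, 27.3 CPM, 74.7 CPM and 32.1 CPM, so the wild-type female was high and the other libraries lay close together. The muscle phosphofructokinase genes had few counts. pfkma had 32, 30, 55 and 8 counts, and pfkmb had 1, 11, 40 and 7. For both the wild-type female was the highest, while pfkma was lowest in the mutant female and pfkmb in the wild-type male. aldoab, an aldolase A gene, had 51, 85, 92 and 70 counts, or 3.19 CPM, 5.28 CPM, 10.5 CPM and 5.35 CPM.

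Among the 59 kept members, 7 were at least 2-fold higher in the wild-type female than in each of the other 3 libraries, against 0.837% of all 19943 genes kept. These were gapdh, pkmb, pgam2, eno3, pfkma, pfkmb and pdk2b, of which 5 are muscle type isoforms, pdk2b encodes a pyruvate dehydrogenase kinase, and none is brain type. pfkmb passed the filter on low counts only through the wild-type female, so its place among them is no support for the count. gapdh was listed as muscle type from its counts in these libraries, so its type is no support either. No member was at least 2-fold below each other library in the wild-type female (1.17% of all genes). In the wild-type male 0 members stood above each other library (0.371% of all genes) and 1, pfkmb, below (0.817%). In the mutant male 0 stood above (0.461%) and 0 below (0.346%), and in the mutant female 0 stood above (0.291%) and 1, pfkma, below (1.15%).
Only hk2 and slc16a3, 2 of the 10 muscle type isoforms, were not highest in the wild-type female. The list had a median of 1.24 on the log2 scale above the mean of the other 3 libraries. It holds gapdh, placed by its counts here, and pfkmb, kept only through the wild-type female, so these values are a description and no support. The brain type isoforms had a median of 0.0043 in the same measure, and all genes kept 0.0028.

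**Figure D2:**
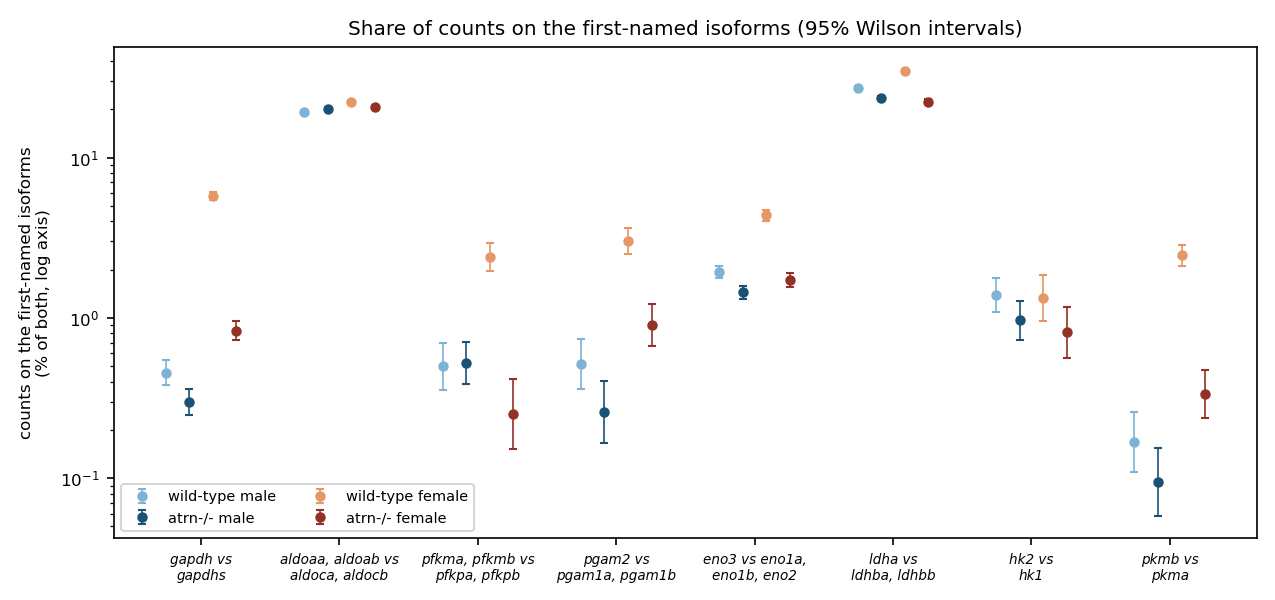
Points are the percent of an isoform family's counts that fell on the first-named isoforms in each library, on a log axis, and bars are 95% Wilson intervals of counting error. For gapdh the wild-type female sits at 5.77% and the other libraries between 0.298% and 0.834%, while the hk2 points overlap in their intervals.

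Shares within a family need no scaling between libraries. gapdh took 0.456% of the counts on gapdh and gapdhs in the wild-type male (95% Wilson interval 0.382% to 0.546%) and 0.298% in the mutant male (95% Wilson interval 0.248% to 0.358%). It took 5.77% in the wild-type female (95% Wilson interval 5.43% to 6.13%) and 0.834% in the mutant female (95% Wilson interval 0.730% to 0.954%). By counting error all 4 libraries were apart, and the wild-type female was the farthest. For the males gapdh itself was alike, at 7.45 CPM in the wild type and 7.08 CPM in the mutant. gapdhs, the other part of this share, had 1625 CPM in the wild-type male and 2365 CPM in the mutant male.
pgam2 took 3.02% of the mutase counts in the wild-type female (95% Wilson interval 2.51% to 3.62%), and between 0.260% and 0.904% in the other libraries. The muscle phosphofructokinase genes took 2.41% of the counts on muscle and platelet-type genes in the wild-type female (95% Wilson interval 1.97% to 2.93%), and between 0.252% and 0.523% elsewhere. For pkmb against pkma the wild-type female had 2.45% (95% Wilson interval 2.11% to 2.85%), and the others between 0.0944% and 0.336%. eno3 took 4.37% of the enolase counts in the wild-type female (95% Wilson interval 4.05% to 4.70%), and between 1.44% and 1.92% in the others.
The aldolase A share was much the same everywhere, from 19.3% in the wild-type male to 22.4% in the wild-type female, because aldoaa, with 7013, 8170, 4679 and 5903 counts, made up most of it. The brains carried an aldolase A gene in quantity in every library. For hk2, the insulin-responsive hexokinase of mammalian muscle, the share lay between 0.812% and 1.39%, and the wild-type female, at 1.33%, did not stand apart.

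Of the 17 muscle markers kept, 13 had the order of gapdh over the libraries. The wild-type female came first, then the mutant female, the wild-type male and the mutant male. The share of all genes with this order was not computed. For gapdh the males were alike within counting error (male log2 ratio -0.07), whereas the muscle markers had a male median of -0.71, with all 17 below 0. Their female median was -2.46, with 15 of 17 below 0. The creatine kinase gene ckma had 9.27 CPM in the wild-type male, 3.73 CPM in the mutant male, 294 CPM in the wild-type female and 31.0 CPM in the mutant female. The parvalbumin gene pvalb2 had 25.7 CPM, 8.39 CPM, 646 CPM and 61.8 CPM in the same order. Of the kept markers, 13 were at least 2-fold higher in the wild-type female than in each other library (0.837% of all genes). The markers with another order were ryr1b, highest in the wild-type male, neb, highest in the wild-type female and lowest in the mutant female, and mylpfb and acta1b, both highest in the mutant female. None of the 20 listed was at 0 in every library, and tnni2a.4 was at 0 in both male libraries. What part muscle in the samples had in the levels of pkmb, and of gapdh, pgam2 and the other muscle type isoforms, was not tested. Less or more RNA per cell cannot be told apart from fewer or more cells in bulk RNA.

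**Figure D3:**
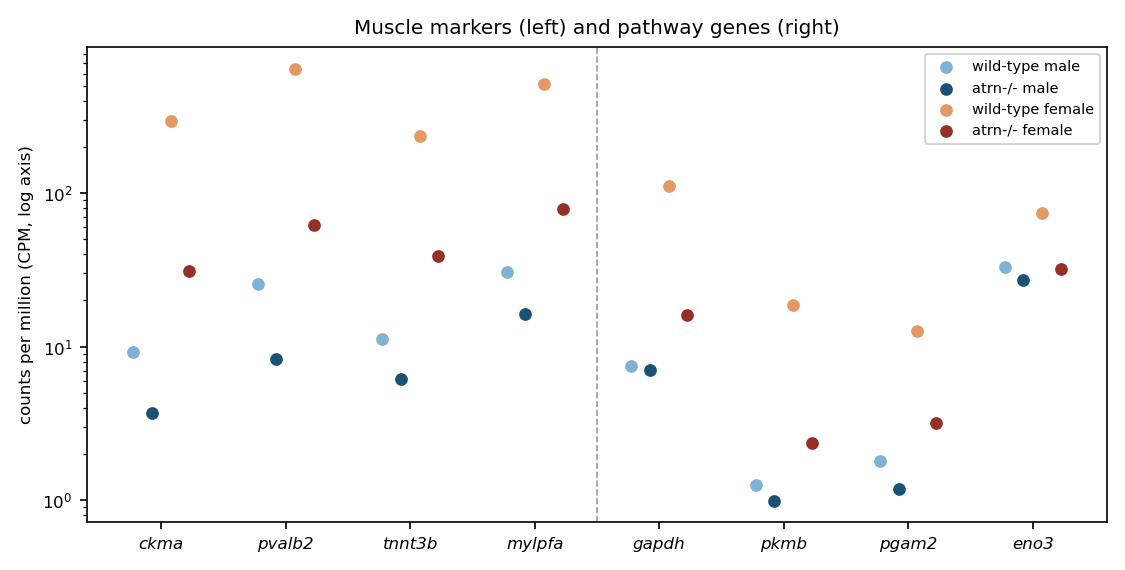
Points are CPM on a log axis in each of the 4 libraries for 4 of the muscle markers with the order of gapdh (ckma, pvalb2, tnnt3b and mylpfa) and for gapdh, pkmb, pgam2 and eno3. The 2 female libraries are the highest for each gene except eno3, and the wild-type female exceeds the mutant female in all 8 genes. Examples are 294 against 31.0 CPM for ckma and 112 against 16.2 CPM for gapdh. The markers were taken for the order of gapdh and the pathway genes from those high in the wild-type female. Their agreement is thus a description and no support, and markers with another order are not shown.

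The male ratios of brain type isoforms lay mostly above 0. For these 13 genes the males gave a median log2 ratio of 0.17, with 12 above 0, and the females 0.03, with 7 above 0. The muscle type list had medians of -0.08 for males, with 4 of 10 above 0, and -1.08 for females, with none above 0. It includes gapdh and pfkmb, with the limits given above. All genes kept had medians of -0.0070 and 0.0013. Without the wild-type female, the muscle type median for the mutants against the remaining wild type was 0.06, and with all 4 libraries -0.51. The first value sets both mutants against the wild-type male alone, so it mixes the sexes and is no ratio within a sex. For the brain type list the corresponding values were 0.14 and 0.14.
gapdhs had the largest male log2 ratio of the brain type genes, 0.54 (95% interval 0.52 to 0.56), and its level was 1625 CPM in the wild-type male, 2365 CPM in the mutant male, 1825 CPM in the wild-type female and 1925 CPM in the mutant female. For females the log2 ratio was 0.08 (95% interval 0.05 to 0.11). The wild-type male was the lowest and the mutant male the highest of the 4 libraries.
pkma, the pyruvate kinase gene with most of the counts of this step, had 745 CPM, 1052 CPM, 749 CPM and 703 CPM in the same order. Only the mutant male stood out, with a male log2 ratio of 0.50 (95% interval 0.46 to 0.53) against -0.09 for females (95% interval -0.14 to -0.05). The mutase gene pgam1b had 254 CPM, 344 CPM, 303 CPM and 258 CPM, and its male and female log2 ratios were 0.44 and -0.23.
Of the further genes of the chain, the glucose-6-phosphate isomerase gene gpia had male and female log2 ratios of 0.42 and 0.11. The triosephosphate isomerase gene tpi1b had 0.25 and 0.02, its sister gene tpi1a 0.21 and -0.07, and the phosphoglycerate kinase pgk1 0.23 and -0.15. eno1a, an alpha enolase, had 0.28 and -0.00091, and eno1b 0.28 and 0.10. The abundant neuronal enolase gene eno2 had 724 CPM, 692 CPM, 588 CPM and 778 CPM, with ratios of -0.066 and 0.40. hk1, the brain hexokinase, had 0.10 and -0.13, the phosphofructokinase gene pfkpa 0.21 and 0.03, and aldocb 0.13 and -0.15. Except for eno2, the genes in these sentences were higher in the mutant male than in the wild-type male, and their female ratios lay on either side of 0. gpib, the second isomerase gene, had few counts (83, 88, 63 and 92) and ratios of 0.07 and -0.03.

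In the mutant male, 29 of the 59 members were higher by an interval without 0 (20.3% of all genes) and 10 were lower (21.3% of all genes). In the mutant female the numbers were 12 higher (18.4% of all genes) and 26 lower (18.4%). Many members have high counts and therefore narrow intervals, so the shares of all genes, most of which have fewer counts, are not a like-for-like background. Of the members, 9 were higher in both mutants by intervals without 0 (6.60% of all genes), 7 were lower in both (6.27%), and 11 had opposite directions in the sexes (5.92%). The 9 higher genes were aldoca, gapdhs, gpia, ldhba, mpc2, pdha1a, pdhb, pdk2a and pfkfb4l, and the 7 lower ones were eno3, ldha, pdk2b, pfkfb2a, pfkfb3, pfklb and pkmyt1.
Markers of cell types that carry these enzymes also differed between the male libraries. For astroglia markers the median male log2 ratio was 0.28 (7 of 8 above 0), for myelin markers 0.52 (5 of 6 above 0), and for neuron markers 0.01 (6 of 10 above 0). In the females the medians were 0.32, -0.18 and 0.09. Red cell markers lay below 0 in both sexes (3 of 3 in each), with medians of -1.46 for males and -1.05 for females, and 2 of them were called lower over both sexes by edgeR. Photoreceptor markers had a median of 2.58 for males (7 of 7 above 0) and 0.55 for females (6 of 7 above 0), and 1 was called higher. That edgeR test called 0.211% of all genes, higher and lower together. The part of cell composition in the ratios of the members was not tested.

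At 2-fold, few members differed between the male libraries. Only pfkmb was at least 2-fold higher in the mutant male (1 of 59, against 2.73% of all genes), from 1 count to 11, a log2 ratio of 1.98 with an interval of 0.67 to 8.88. None was at least 2-fold lower (2.40% of all genes), but slc16a10, which encodes an aromatic amino acid transporter and is not a gene of this pathway, was just short of it, with 516 and 259 counts and a log2 ratio of -0.9995. In the females, 9 of 59 were at least 2-fold lower in the mutant (4.47% of all genes) and 0 were higher (3.36%). These 9 were the 7 genes high in the wild-type female, with pdk4 and pdha1b, and each of them had its highest level in the wild-type female. Among them, pfkmb passed the filter on low counts only through that library. At least 50 counts on average left 5 of the 9, and 4 of the 7.

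Lactate dehydrogenase interconverts pyruvate and lactate. In mammals the A form is known for the direction to lactate and the B form for the reverse. ldha had 303 CPM in the wild-type male, 266 CPM in the mutant male, 343 CPM in the wild-type female and 253 CPM in the mutant female, so both mutants lay below both wild types. ldhba had 764 CPM, 817 CPM, 598 CPM and 825 CPM in the same order, and both mutants lay above both wild types. The A share of the lactate dehydrogenase counts was 27.1% in the wild-type male (95% Wilson interval 26.5% to 27.8%) and 23.5% in the mutant male (95% Wilson interval 22.8% to 24.1%). It was 34.5% in the wild-type female (95% Wilson interval 33.5% to 35.5%) and 22.4% in the mutant female (95% Wilson interval 21.7% to 23.1%).
In the edgeR fit of all 4 libraries, ldha had a log2 fold change of -0.31 (SE 0.109, unadjusted p = 0.0227, edgeR-adjusted p = 0.463) and ldhba one of 0.28 (SE 0.118, unadjusted p = 0.0487, edgeR-adjusted p = 0.549). Neither passed over all genes. Without the wild-type female the log2 fold changes were -0.22 and 0.11. Here and below, a fit without 1 library also lacks the sex or genotype term, since 3 libraries leave no residual degree of freedom for it. ldhbb, the other B gene, had 51.3 CPM, 52.6 CPM, 52.7 CPM and 51.4 CPM and was level across the libraries. ldhd, which encodes the dehydrogenase of D-lactate, had 249, 208, 80 and 161 counts, with log2 ratios of -0.27 for males and 0.42 for females.

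Fructose-2,6-bisphosphate drives phosphofructokinase, and the bifunctional enzymes of the pfkfb genes make and break it. pfkfb4l had 117 CPM in the wild-type male, 185 CPM in the mutant male, 126 CPM in the wild-type female and 193 CPM in the mutant female. Its mutants lay above its wild types without overlap and by a like amount in each sex, with log2 ratios of 0.66 (95% interval 0.58 to 0.74) for males and 0.62 (95% interval 0.51 to 0.72) for females. The edgeR fit of all 4 libraries gave it 0.64 on the log2 scale (SE 0.103, unadjusted p = 0.000417, edgeR-adjusted p = 0.106), the lowest p of the members. This estimate stayed between 0.59 and 0.69 whichever library was left out. A DESeq2 Wald test gave it an adjusted p of 0.00988, and edgeR without the filter on low counts gave 0.00561. With other scaling, the stricter filter or no sex term the edgeR-adjusted p lay between 0.0973 and 0.245, and with 1 library left out between 0.149 and 0.843.
No related gene had the profile of pfkfb4l. pfkfb2a had 15.8 CPM, 10.9 CPM, 22.7 CPM and 17.4 CPM, and the mutant was the lower library in each sex. pfkfb3 had log2 ratios of -0.21 for males and -0.31 for females, and pfkfb4 had -0.10 and 0.16 with intervals that include 0. Among the phosphofructokinases themselves, the liver-type gene pfklb was lower in both mutants, with 95.7 CPM, 79.3 CPM, 94.0 CPM and 75.0 CPM. The platelet-type gene pfkpb had 26.6 CPM, 37.0 CPM, 40.6 CPM and 46.3 CPM, and its lowest library was the wild-type male. pklr, the pyruvate kinase of liver and red cells, had 44, 30, 30 and 30 counts, with ratios of -0.53 and -0.55 whose intervals include 0.

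Pyruvate enters the mitochondrion through the carrier of mpc1 and mpc2 and is turned into acetyl-CoA by the pyruvate dehydrogenase complex. mpc2 had log2 ratios of 0.54 (95% interval 0.43 to 0.65) for males and 0.14 (95% interval 0.0076 to 0.28) for females, and mpc1 had 0.44 and 0.04. The E1 subunit gene pdhb had 150 CPM in the wild-type male, 194 CPM in the mutant male, 150 CPM in the wild-type female and 176 CPM in the mutant female, so the wild types were alike and both mutants above them. The other E1 subunit gene pdha1a had ratios of 0.17 and 0.14. pdhx, the gene of a structural component, had -0.02 and 0.40, and the female ratio went with a low wild-type female (41.9 CPM against 55.1 to 56.0 CPM in the others). pdha1b had 14, 21, 18 and 9 counts, too few for more than a rough ratio.
The pyruvate dehydrogenase kinases switch the complex off by phosphorylation. pdk2a had 58.9 CPM, 70.5 CPM, 70.5 CPM and 99.5 CPM in the wild-type male, mutant male, wild-type female and mutant female, and the mutant female was the highest. Its paralogue pdk2b had 3.07 CPM, 1.61 CPM, 7.18 CPM and 2.14 CPM, and both mutants lay below both wild types. pdk4, which in mammals is induced by fasting in muscle and heart, had 90, 75, 85 and 51 counts. It had log2 ratios of -0.27 (95% interval -0.74 to 0.18) for males and -1.28 (95% interval -1.84 to -0.80) for females. pdk1 had ratios of 0.06 and -0.17, pdk3a of 0.07 and -0.14, and pdk3b, at 10 to 24 counts, of 0.29 and 0.09.

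Monocarboxylate transporters carry lactate and pyruvate across the cell membrane. slc16a1, the gene of MCT1, had 9.20 CPM in the wild-type male, 15.6 CPM in the mutant male, 14.9 CPM in the wild-type female and 15.7 CPM in the mutant female, so the wild-type male was low and the others alike. Its male log2 ratio was 0.75 (95% interval 0.46 to 1.06) and its female log2 ratio 0.07 (95% interval -0.25 to 0.40). slc16a3, the gene of MCT4, which in mammals exports lactate from fast muscle, had 32.1 CPM, 36.3 CPM, 35.8 CPM and 29.3 CPM and did not share the muscle profile. slc16a8 had 66.9 to 73.8 CPM, and the best human match listed for it in the table is another gene, PDAP1, so its counts may not be those of the transporter alone.
The symbol pattern also took 6 genes that are not of this pathway, slc16a10, slc16a12a, slc16a12b, slc16a13, pgam5 and pkmyt1. They were left out of the type lists. slc16a12a, slc16a12b and slc16a13 had at most 95 counts in any library. pgam5, which encodes a mitochondrial phosphatase, had log2 ratios of 0.15 and 0.15, and pkmyt1, a kinase of the cell cycle, had -0.34 and -0.35. The family member eno4 had 77, 41, 31 and 45 counts, with the wild-type male highest.

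Over both sexes, the 2 mutant libraries were set against the 2 wild-type ones with edgeR's quasi-likelihood test and sex in the model. With p adjusted by Benjamini-Hochberg over all 19943 genes, the edgeR test called 0 of the 59 members (0.211% of all genes were called). At an unadjusted p under 0.05 there were 19 members, 9 higher and 10 lower in the mutant, against 9.07% of all genes. DESeq2 called 1 member, for which no share of all genes was computed. At an unadjusted p under 0.05 it had 9 members, against 3.655% of all genes. The 9 higher members in the edgeR test were aldoca, gapdhs, gpia, ldhba, mpc2, pdhb, pdk2a, pfkfb4l and pfkpb. The 10 lower members in the edgeR test were eno3, gapdh, ldha, pdk2b, pdk4, pfkfb2a, pfklb, pgam2, pkmb and pkmyt1. In edgeR fits without the wild-type female 11 members had an unadjusted p under 0.05 (9.79% of all genes), without the mutant female 7 (3.58%), without the mutant male 3 (5.48%) and without the wild-type male 16 (9.36%). Without the mutant male the members' share was thus no more than that of all genes.
After pfkfb4l, the lowest p belonged to pdk2b, at -1.34 on the log2 scale (SE 0.391, edgeR-adjusted p = 0.368). It was followed by eno3 at -0.75 (SE 0.219, edgeR-adjusted p = 0.368), pgam2 at -1.40 (SE 0.416, edgeR-adjusted p = 0.376) and pkmb at -1.96 (SE 0.599, edgeR-adjusted p = 0.393). gapdh had -1.61 (SE 0.554, edgeR-adjusted p = 0.456). The male interval includes 0 for gapdh, pkmb (-0.29, 95% interval -1.38 to 0.69) and pgam2 (-0.56, 95% interval -1.54 to 0.26). Without the wild-type female, both mutants were set against the wild-type male with no sex term. That fit gave 0.64 for gapdh, 0.41 for pkmb and 0.26 for pgam2, while the male ratio of gapdh was -0.07. In it the mutant female, above the mutant male by 1.18, 1.14 and 1.34 for these genes, has no female wild type beside it. The positive values are thus no reversed ratio within a sex. With all 4 libraries and no sex term these genes had -2.35, -2.55 and -1.69. In the fit without the wild-type female the other genes kept their sign, with -0.15 for eno3, -0.71 for pdk2b and 0.69 for pfkfb4l.

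**Figure D4:**
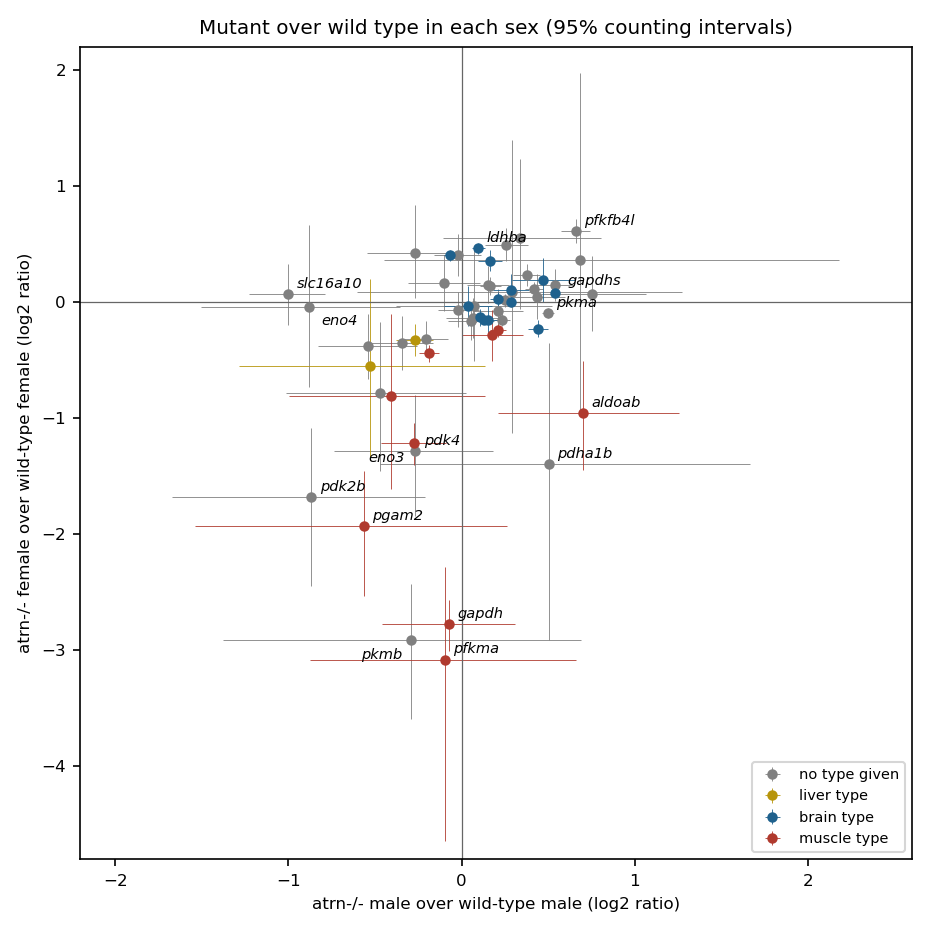
Each point is 1 kept member (pfkmb, at 1.98 and -2.79, is left out for its wide interval), with the mutant/wild-type log2 ratio for males on the x axis and for females on the y axis, and lines are 95% counting intervals. Brain type genes gather near 0 and to its right, gapdh, pkmb and pfkma lie near 0 for males and near -3 for females, and pfkfb4l lies at 0.66 and 0.62.

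Between the sexes, with genotype in the model, the edgeR test called 0 of 59 members (0.140% of all genes were called) and 8 had an unadjusted p under 0.05 (7.57% of all genes). DESeq2 likewise called 0, for which no share of all genes was computed. At an unadjusted p under 0.05 it had 5 (2.62% of all genes). All 8 were higher in the female libraries, namely gapdh, pgam2, pkmb, eno3, pdk2a, pdk3a, pfkfb2a and pfkpb. pgam2 had the lowest p, with a female over male value of 2.19 on the log2 scale (SE 0.420, unadjusted p = 0.00115, edgeR-adjusted p = 0.286). gapdh had 2.63 (SE 0.561, unadjusted p = 0.00209, edgeR-adjusted p = 0.361) and pkmb 2.77 (SE 0.605, edgeR-adjusted p = 0.379). Without the wild-type female and the genotype term these values were 1.09, 1.15 and 1.07, and without that term alone 2.38, 3.12 and 3.20.
Between the mutants alone, the female was above the male by 1.18 on the log2 scale for gapdh (95% interval 0.86 to 1.53), and by 1.14 for pkmb (95% interval 0.34 to 2.22). Between the wild types the difference was 3.88 for gapdh (95% interval 3.63 to 4.19) and 3.76 for pkmb (95% interval 3.24 to 4.66). The muscle markers had a median female over male log2 ratio of 2.36 in the mutants and 4.00 in the wild types, and their part in these values was not tested. Of these markers, the edgeR test called 9 between the sexes, all higher in the female libraries (0.140% of all genes). For the genotype it called 1, pvalb1, lower in the mutant (0.211% of all genes). pfkfb2a (log2 fold change 0.60, edgeR-adjusted p = 0.576) and pfkpb (0.46, edgeR-adjusted p = 0.576) were higher in the female library within each genotype. With 1 library left out, pfkfb2a ranged from 0.34 (without the mutant male) to 0.88 (without the wild-type male) and pfkpb from 0.23 (without the wild-type male) to 0.71 (without the mutant male). Without the wild-type female they had 0.38 and 0.54.

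Genes of glucose uptake, gluconeogenesis and pyruvate handling outside the symbol pattern were listed apart. Of the 39 in the table, 30 were kept, and the edgeR test of genotype called 0 of them (0.211% of all genes). At an unadjusted p under 0.05, 4 were higher and 2 lower in the mutant (9.07% of all genes, both directions together). Their median log2 ratios were 0.13 for males and 0.08 for females. hif1al2, one of the genes named for similarity to the hypoxia factor, had 461, 114, 213 and 141 counts in the wild-type male, mutant male, wild-type female and mutant female, and its log2 ratios were -2.005 and -1.16 (edgeR-adjusted p = 0.0919). The hexokinase domain gene hkdc1 had 199, 113, 112 and 57 counts, with ratios of -0.81 and -1.52. The mutants were the lower library in each sex for both genes. Other listed genes with a hif1a symbol did not share this. hif1aa had log2 ratios of 0.73 for males and 0.11 for females, hif1ab 0.19 and 0.32, and hif1al 0.32 and 0.14. hif1an had -0.05 and -0.36.
The glucose transporter gene slc2a1a had 302, 644, 299 and 483 counts, with log2 ratios of 1.07 for males and 0.11 for females, and slc2a1b had 100, 160, 98 and 214, with 0.65 and 0.54. Both are zebrafish copies of the GLUT1 gene of the mammalian blood-brain barrier. The neuronal transporter gene slc2a3a had ratios of 0.02 and 0.31. bsg, which encodes the partner protein that brings monocarboxylate transporters to the membrane, had 0.31 and 0.13.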

How the data were processed

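Per-gene read counts without normalization were deposited by the authors for 4 brain libraries, 1 for each sex and genotype, and groups follow the GEO labels. The paper's methods name MapSplice for alignment, while the submitters' processing notes name HISAT2 and the genome build GRCz10. Versions, annotation and the counting program are not given in the sources used here.

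Libraries were scaled by TMM (edgeR 4.0.16, R 4.3.3) on the 19943 genes averaging 10 counts or more. CPM is counts over the TMM-scaled library size. Log2 ratios used a prior count of 2, and their intervals are exact Clopper-Pearson intervals rescaled by library size. Comparisons over 4 libraries used edgeR's quasi-likelihood test with the other factor as covariate, which leaves 1 residual degree of freedom, and Benjamini-Hochberg adjustment over all genes at 0.05. The script was tested on simulated counts with known changes. PCR duplicates cannot be told from molecules, so intervals and floors (3 counts) cover counting error only. With sex and genotype in the model, the residual behind the p-values is how far a gene's mutant/wild-type ratio differs between the sexes. edgeR moderates it over all genes. It is no spread between like libraries or between fish, and unlike ratios in the sexes enlarge the error by design.

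Members and lists were chosen with earlier results of these data known. Of the members kept, 1 is counted in the totals but not reported here by name or in the plots. Full statistics follow isoform type, the extremes in each sex and the 5 lowest p of each test, and other genes were picked after their values were seen. Alternatives were other scaling, filters, prior counts, thresholds, DESeq2 1.42.0, fits without the covariate and leaving out each library. The marker sum without ryr1b was added after the data were seen. Sequences were not used here.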

Additional observations from a re-analysis of the deposited data

Results flagged for a closer look

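For 11 members (5.92% of all genes), the male and female mutants differed in direction by counting intervals without 0. Many members have high counts and therefore narrow intervals, so the share of all genes is not a like-for-like background. The difference between the sexes was not tested, since each sex has 1 library per genotype. Among the 11 members, the largest gaps were those of pfkmb and aldoab. The mutant/wild-type log2 ratio of pfkmb was 1.98 for males and -2.79 for females, and that of aldoab 0.70 and -0.95. pfkmb passed the filter on low counts only through the wild-type female, and its male ratio rests on 1 and 11 counts. The female ratios of both genes contain the wild-type female, in which muscle markers were high. The mutase genes were pgam1b, with 0.44 and -0.23, and pgam1a, with 0.15 and -0.15. pkma had 0.50 and -0.092, and pgk1 had 0.23 and -0.15. The aldolase genes aldoaa and aldocb had 0.21 and -0.24, and 0.13 and -0.15, in that order. hk1 had 0.10 and -0.13, slc16a3 had 0.18 and -0.29, and eno2, the neuronal enolase, went the other way with -0.066 and 0.40.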

How the results depend on the processing

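In edgeR fits leaving out 1 library in turn, which also lack the covariate, members called ranged from 0 to 2 for the genotype (2 without the wild-type male) and from 0 to 4 for the sex (4 without the mutant female). Members at an unadjusted p under 0.05 ranged from 3 to 16 and from 4 to 13, while the shares of all genes ranged from 3.58% to 9.79% and from 2.50% to 6.94%. Without the filter on low counts 2 members were called for the genotype and 3 for the sex, and DESeq2 called 1 for the genotype. The share of all genes called was not computed for these settings or with 1 library left out, so these counts have no background. At an unadjusted p under 0.05, DESeq2 gave 9 and 5 members (3.655% and 2.622% of all genes). The edgeR fit without the covariate gave 11 and 5 (7.165% and 5.596%). Of the single genes, gapdh ranged from -3.28 to 0.64 for the genotype, pkmb from -3.51 to 0.41 and pgam2 from -2.57 to 0.26. Each was positive only without the wild-type female, where both mutants were set against the wild-type male with no sex term.

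The median of muscle type isoforms, mutants minus wild types, ranged from -1.15 (without the wild-type male) to 0.065 (without the wild-type female). That of brain type isoforms ranged from 0.052 to 0.19. With 1 library left out the sexes are not balanced, so these medians mix sex with genotype. A mean of at least 50 counts left 0 members 2-fold higher in the mutant male, 5 lower in the mutant female, 4 above in the wild-type female and 0 standing apart in the other libraries (2 at first). At 1.5-fold, 6 were higher and 3 lower in the mutant male, 1 was higher and 12 lower in the mutant female, 10 stood above in the wild-type female and 4 stood apart in the other libraries. Total counts and a prior count of 0.5 each gave 1 member (0 at first) 2-fold lower in the mutant male. Shares of all genes were not computed for the settings in this paragraph.

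With the most abundant isoform of each type, in the order wild-type male, mutant male, wild-type female and mutant female, the muscle type share was 21.0%, 22.0%, 23.7% and 22.7% for aldolase. It was 3.65%, 2.50%, 7.17% and 3.21% for enolase and 28.4%, 24.6%, 36.5% and 23.4% for lactate dehydrogenase. In the wild-type female and mutant it was 4.01% and 1.23% for the mutase, and 1.55% and 0.15% for phosphofructokinase. No paired analysis was possible because each group has 1 library and the labels give no replicate numbers, and the genotype test already has sex as a term.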
